A study of Rattus norvegicus with 3 samples.

Results

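The kidney's proximal tubule takes most of the filtered solute, water and protein back into the body, and 9 genes that carry out this work in the brush border cell were described here across 3 rat strains. They were *Slc34a1*, *Slc5a1*, *Slc5a2*, *Slc5a12*, *Slc13a1* and *Slc13a3*, which encode sodium-coupled solute carriers, *Aqp1*, which encodes a water channel, and *Lrp2* and *Cubn*, which encode the endocytic receptors megalin and cubilin. They were chosen by gene name and not by a rule on their values, although earlier results of these data were known. Each name matched 1 of the 33194 records in each deposited table, of which 22938 were marked as protein-coding. The series holds whole-kidney RNA from the Dahl salt-sensitive strain (Dahl S) at 53 days of age, the Dahl salt-resistant strain (Dahl R) at 54 days and the spontaneously hypertensive rat (SHR) at 55 days, with 1 library per strain. Dahl S is an inbred model whose blood pressure climbs on a high-salt diet, Dahl R is its resistant counterpart, and SHR becomes hypertensive without added salt. The animals of all 3 strains were weaned at 30 days and were then kept on a low-salt diet of 0.3% salt, so no library comes from a salt-loaded rat. The labels used here do not give sex, and do not say how many animals went into a library.

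In the proximal tubule, the sodium pump of the basolateral membrane keeps cell sodium low, and carriers of the apical membrane use the resulting gradient to draw phosphate, glucose, lactate, sulfate and amino acids out of the filtrate. Water follows through aquaporin-1. Megalin and cubilin bind filtered proteins and carriers of vitamins at the brush border and deliver them to endosomes and lysosomes, while the receptors return to the surface.

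Values are FPKM, fragments relative to transcript length and sequencing yield, so levels can be set side by side between genes as well as between strains. Each is followed by the lower and upper confidence limits deposited with it, whose confidence level is not stated. With 1 library per strain there is no spread between animals and no p-value. Differences are given as log2 ratios of FPKM plus a pseudocount of 1, and a gene was called higher or lower when this ratio was at least 1 in size. This ratio slightly understates the change of the least abundant genes. Whether the deposited limits of the libraries overlapped is stated separately, and these limits do not hold the variation between animals. The depth of the Dahl R library, inferred from the limits of scarce records, was 1.33 times that of Dahl S, and that of the SHR library 1.70 times. The members' limits were of similar width in the 3 libraries: the median distance from value to limit was 29.7%, 29.4% and 30.0% of the value for Dahl S, Dahl R and SHR. Markers of the proximal tubule brush border were all detected in each library, with summed levels over 13 genes, 6 of them members, of 2194, 2156 and 1922 FPKM in Dahl S, Dahl R and SHR.

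All 9 genes had a mean of at least 10 FPKM, and together their share of the FPKM of all records was 0.268% for Dahl S, 0.314% for Dahl R and 0.225% for SHR. Their summed level was 2262, 2634 and 2005 FPKM in the same order. Mitochondrial records held 21.9%, 24.8% and 28.1% of all FPKM, and haemoglobin records 1.53%, 0.635% and 0.333%. The members' shares therefore also depend on these records. SHR had the lowest level for 7 of the 9 genes and the highest for 0. Dahl R had the highest level for 6 and the lowest for 0. Among 14183 protein-coding records averaging at least 1 FPKM, SHR was lowest for 32.2% and Dahl R highest for 26.4%. The ratio of the highest to the lowest strain had a median of 1.61 over the 9 genes, with a range from 1.22 to 1.99. Over protein-coding records of at least 10 FPKM this median was 1.20.

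**Figure D1:**
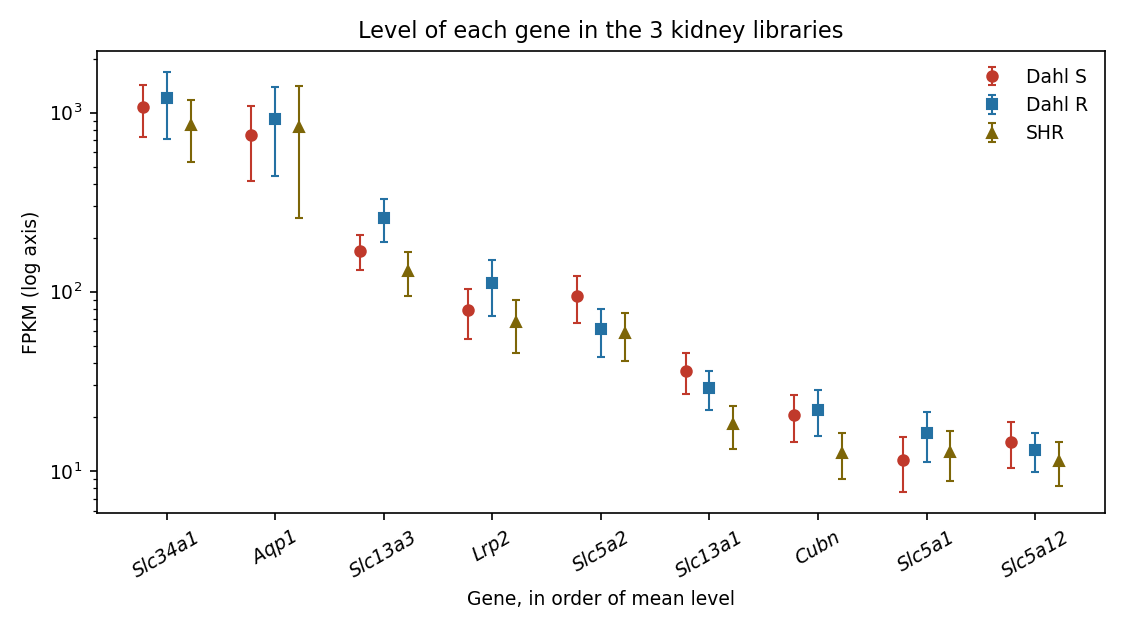
Level of each gene in FPKM on a log axis, by strain, with genes in order of their mean level. Points are the 1 library of each strain and bars are the deposited confidence limits. SHR (triangles) is the lowest point for 7 of 9 genes, and the bars of a gene overlap between strains except for *Slc13a1* in Dahl S and SHR and *Slc13a3* in SHR and Dahl R.

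The phosphate carrier was the most abundant of the 9. *Slc34a1* (ENSRNOG00000015262) encodes NaPi-IIa, the main carrier by which the brush border recovers filtered phosphate, and the files place it at 15261697 to 15277902 on the minus strand of chromosome 17, in a genome build not stated in the labels or file headers. It stood at 1082 FPKM in Dahl S (limits 735 to 1429), 1205 in Dahl R (717 to 1692) and 857 in SHR (531 to 1183). The order was Dahl R, Dahl S, SHR, and the limits of all 3 libraries overlapped. The log2 ratio was -0.15 for Dahl S to Dahl R, 0.34 for Dahl S to SHR and -0.49 for SHR to Dahl R. Its locus is shared with 2 other records, and the coordinates given are those of the shared locus. One of them lies on the opposite strand at 234, 253 and 202 FPKM in Dahl S, Dahl R and SHR, and the other on the same strand at 63.0, 43.3 and 66.6 FPKM. Whether counting used strand is not stated, so reads of these overlapping records may have been divided between them.

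The promoter of *Slc34a1* is shown because its gene had the highest level of the 9. The window is RefSeq's on assembly GRCr8, chr17:9238934-9239233, minus strand, from 250 bases before to 50 after the annotated start, and matches to the motifs searched are in capitals.
Slc34a1: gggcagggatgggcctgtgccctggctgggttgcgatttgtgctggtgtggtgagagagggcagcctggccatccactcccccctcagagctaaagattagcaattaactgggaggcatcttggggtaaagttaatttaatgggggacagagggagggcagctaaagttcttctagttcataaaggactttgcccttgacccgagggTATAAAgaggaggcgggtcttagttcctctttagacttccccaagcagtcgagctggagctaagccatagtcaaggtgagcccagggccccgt
The core of a TATA box, TATAAA, began 43 bases upstream of the start on the strand of the gene. Both strands were searched, and TATAAA was found in 14.2% of all 33469 promoters of the same length. These are matches of letters, and no binding was measured.

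The glucose carriers took different orders. *Slc5a2* (ENSRNOG00000020039; files' chromosome 1, 187523229 to 187556857, plus strand) encodes SGLT2, which takes up the bulk of filtered glucose in the early convoluted part. Its level was 94.6 FPKM in Dahl S (66.5 to 123), 61.6 in Dahl R (43.4 to 79.7) and 58.7 in SHR (41.1 to 76.2). It was thus highest in Dahl S, by log2 ratios of 0.61 over Dahl R and 0.68 over SHR, with limits that overlapped. *Slc5a1* (ENSRNOG00000017775; files' chromosome 14, 83311232 to 83370689, minus strand) encodes SGLT1, the carrier that takes up what is left in the straight part. It stood at 11.5 FPKM in Dahl S (7.61 to 15.5), 16.3 in Dahl R (11.3 to 21.3) and 12.8 in SHR (8.82 to 16.7). Here Dahl S was lowest, by log2 ratios of -0.47 to Dahl R and -0.13 to SHR, again with overlapping limits. Within a library *Slc5a2* exceeded *Slc5a1* by 8.20 times in Dahl S, 3.78 times in Dahl R and 4.60 times in SHR. The ranges that the limits allow for these ratios, 4.30 to 16.1, 2.04 to 7.07 and 2.46 to 8.64, overlapped. *Slc5a2* shares its locus with 1 record on the opposite strand, *RGD1310127*, at 22.9, 18.3 and 19.4 FPKM in Dahl S, Dahl R and SHR. The coordinates given for *Slc5a2* are those of the shared locus.

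*Slc5a12* (ENSRNOG00000028008; files' chromosome 3, 96070756 to 96113699, plus strand) encodes SMCT2, a sodium-coupled carrier of lactate and other monocarboxylates in the brush border. It had 14.5 FPKM in Dahl S (10.3 to 18.6), 13.1 in Dahl R (9.86 to 16.3) and 11.3 in SHR (8.20 to 14.4). The largest log2 ratio among its 3 pairs was 0.33, for Dahl S to SHR, and all limits overlapped.

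The carriers of sulfate and of dicarboxylates held the 2 largest ratios of the 9 genes over all pairs. *Slc13a1* (ENSRNOG00000008121; files' chromosome 4, 50459676 to 50537655, minus strand) encodes NaS1, the carrier that recovers filtered sulfate. Its level was 36.2 FPKM in Dahl S (26.8 to 45.6), 28.9 in Dahl R (21.7 to 36.0) and 18.2 in SHR (13.3 to 23.1). Dahl S was 1.99 times SHR, a log2 ratio of 0.96, and the limits of these libraries did not overlap. Dahl R lay between them, with limits that overlapped those of both. *Slc13a3* (ENSRNOG00000019118; files' chromosome 3, 156447893 to 156510622, minus strand) encodes NaDC3, a basolateral carrier that brings dicarboxylates such as alpha-ketoglutarate into the cell from the blood side. It stood at 169.6 FPKM in Dahl S (132 to 207), 259 in Dahl R (189 to 329) and 130.4 in SHR (94.8 to 166). Dahl R was 1.99 times SHR, so the log2 ratio of SHR to Dahl R was -0.98, and the limits did not overlap. Dahl S lay between, at a log2 ratio of -0.61 to Dahl R, with limits that overlapped those of both. Both ratios were just short of the 2-fold rule. Under 3 other scalings between libraries *Slc13a3* passed it for SHR and Dahl R, at -1.03, -1.04 and -1.01. An rRNA record on the opposite strand shares the locus of *Slc13a3*, at 9.18, 7.70 and 10.1 FPKM, and the coordinates given for *Slc13a3* are those of the shared locus.

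The 2 genes of this family differed in which strain led. *Slc13a3* exceeded *Slc13a1* by 4.68 times in Dahl S, 8.97 times in Dahl R and 7.17 times in SHR, over ranges from the limits of 2.90 to 7.72, 5.26 to 15.1 and 4.10 to 12.5, which overlapped. Their promoters are shown because these genes carry the pair of differences with limits apart, as RefSeq windows on GRCr8 of the same extent, chr4:53612655-53612954 for *Slc13a1* and chr3:174623844-174624143 for *Slc13a3*, both on the minus strand.
Slc13a1: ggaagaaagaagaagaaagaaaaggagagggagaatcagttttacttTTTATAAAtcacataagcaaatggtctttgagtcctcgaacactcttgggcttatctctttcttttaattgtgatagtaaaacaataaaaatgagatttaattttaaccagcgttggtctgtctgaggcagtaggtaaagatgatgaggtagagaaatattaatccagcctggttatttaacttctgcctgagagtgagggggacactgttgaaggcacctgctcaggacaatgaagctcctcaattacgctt
Slc13a3: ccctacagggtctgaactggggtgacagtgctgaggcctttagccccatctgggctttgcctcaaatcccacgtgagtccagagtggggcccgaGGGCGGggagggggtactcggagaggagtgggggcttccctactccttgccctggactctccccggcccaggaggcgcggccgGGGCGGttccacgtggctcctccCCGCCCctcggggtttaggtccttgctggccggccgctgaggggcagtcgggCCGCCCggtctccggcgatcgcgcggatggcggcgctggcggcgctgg
Of the *Slc13a1* window 38.3% was G or C, and of the *Slc13a3* window 71.7%, where the median over all promoters was 51.7%. The capitals in the *Slc13a1* window are TATAAA on the strand of the gene, 201 bases upstream, overlapped by the same letters on the opposite strand. Those in the *Slc13a3* window are 4 matches to GGGCGG, the core of an Sp1 site, which reads CCGCCC on the opposite strand. They begin at 156, 73 and 50 bases upstream of the start and, for the last, just after it. GGGCGG was found in 33.1% of all promoters. Of the other members, *Aqp1* held TATAAA and GGGCGG and *Lrp2* held GGGCGG, while *Slc5a1*, *Slc5a2*, *Slc5a12* and *Cubn* held neither motif in these windows.

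*Aqp1* (ENSRNOG00000011648; files' chromosome 4, 84098345 to 84110524, plus strand) encodes the water channel of both membranes of the proximal tubule cell, and is also known from the thin descending limb, from endothelium and from red cells. It had 754 FPKM in Dahl S (418 to 1091), 917 in Dahl R (442 to 1393) and 836 in SHR (258 to 1413). Its limits were the widest of the 9, up to 69.1% of the value, and its strains differed least, by at most 1.22 times. Red cell markers, 5 records led by globins, had summed levels of 13024, 5444 and 3192 FPKM in the same order of strains. The globins fell in that order, while *Slc4a1* of the same list was highest in SHR, at 144, 115 and 224 FPKM. The 6 endothelial markers summed to 373, 362 and 470 FPKM, and the 4 thin descending limb markers to 56.6, 56.8 and 68.0 FPKM, both highest in SHR. The rise of the thin descending limb sum was mostly that of *Slc14a2*, at 30.2, 30.2 and 43.7 FPKM, while *Bst1* and *Fst* were lowest in SHR. Over these 4 markers the median log2 ratio of SHR to Dahl R was 0.02, with 2 above 0. The part of red cells, endothelium and thin descending limb in the *Aqp1* level was not tested.

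The endocytic receptors were both lowest in SHR. *Lrp2* (ENSRNOG00000030487; files' chromosome 3, 51644526 to 51724478, minus strand) encodes megalin, the large receptor that binds filtered albumin, vitamin-binding proteins and many hormones. It stood at 79.1 FPKM in Dahl S (54.4 to 104), 112 in Dahl R (72.8 to 150.3) and 68.0 in SHR (45.7 to 90.4). Dahl R was highest, by 1.41 times over Dahl S and 1.64 times over SHR, with limits that overlapped. *Cubn* (ENSRNOG00000029047; files' chromosome 17, 87655812 to 87772079, minus strand) encodes cubilin, which has no membrane-spanning part of its own and works with megalin and amnionless. It stood at 20.4 FPKM in Dahl S (14.5 to 26.4), 21.98 in Dahl R (15.6 to 28.3) and 12.6 in SHR (8.96 to 16.2). The Dahl strains were close to each other and SHR was lower. The log2 ratio was -0.76 for SHR to Dahl R and 0.66 for Dahl S to SHR, with limits that overlapped. *Lrp2* exceeded *Cubn* by 3.87 times in Dahl S, 5.08 times in Dahl R and 5.40 times in SHR, and the ranges from the limits overlapped.

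**Figure D2:**
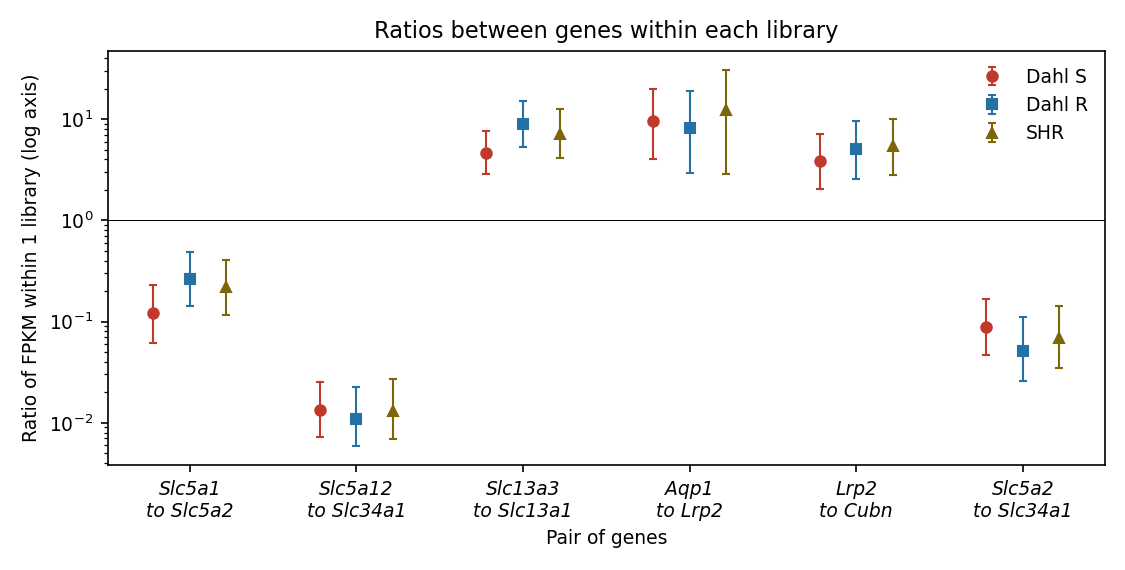
Ratio of the FPKM of one gene to that of another within each library, on a log axis, for 6 pairs of genes; bars are the ranges that the deposited limits allow. The ratio of *Slc5a1* to *Slc5a2* is lowest in Dahl S at 0.122 and that of *Slc13a3* to *Slc13a1* is highest in Dahl R at 8.97, and in every pair the 3 bars overlap.

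The order of levels was nearly the same in the 3 kidneys. *Slc34a1* came first and *Aqp1* second in each, with limits that overlapped. *Slc13a3* followed them in each, and its limits were clear of both neighbours. *Slc5a2* and *Lrp2* came next with overlapping limits, *Slc5a2* first in Dahl S and *Lrp2* first in Dahl R and SHR. *Slc13a1* followed, with limits below those of the gene before it in each library. Below it, *Cubn*, *Slc5a1* and *Slc5a12* had overlapping limits between neighbours and took different orders in the strains. In Dahl S the limits of *Slc13a1* and *Cubn* were apart, and in the other libraries *Slc13a1* overlapped the gene below it. Among protein-coding records of a library the members' levels ranked from the 70.3rd percentile, for *Slc5a12* in SHR, to the 99.9th, for *Slc34a1* in Dahl R.

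A ratio within a library does not depend on scaling between libraries. *Slc34a1* exceeded *Slc5a2* by 11.4 times in Dahl S, 19.6 times in Dahl R and 14.6 times in SHR. *Slc34a1* exceeded *Slc5a12* by 74.7, 92.2 and 75.8 times, and *Aqp1* exceeded *Lrp2* by 9.54, 8.22 and 12.3 times. For each of the 6 pairs of genes examined, the ranges that the limits allow overlapped between all 3 strains. The highest ratio was 2.17 times the lowest for *Slc5a1* with *Slc5a2*, the widest of the 6, and 1.23 times for *Slc5a12* with *Slc34a1*, the narrowest.

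Between Dahl S and Dahl R the 9 genes were split. *Slc5a2*, *Slc13a1* and *Slc5a12* were higher in Dahl S, and the other 6 were lower, with *Slc13a3* at -0.61, *Lrp2* at -0.49 and *Slc5a1* at -0.47 as log2 ratios. The median of the 9 was -0.15, beside 0.04 over all protein-coding records, of which 56.1% were above 0. By the 2-fold rule 0 of 9 were called, where 1.97% of protein-coding records were, and 1.08% of those of at least 10 FPKM. Limits were apart for 0 of 9, where this held for 1.95% of protein-coding records and for 1.59% of those of at least 10 FPKM.

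Between Dahl S and SHR the balance lay toward Dahl S. The ratio was above 0 for 7 of 9 genes, all but *Slc5a1* at -0.13 and *Aqp1* at -0.15. The largest were 0.96 for *Slc13a1*, 0.68 for *Slc5a2* and 0.66 for *Cubn*. The median was 0.34, beside 0.00 over all protein-coding records, of which 49.7% were above 0. The 2-fold rule called 0 of 9, against 2.97% of protein-coding records and 2.02% of those of at least 10 FPKM. Limits were apart for 1 of 9, *Slc13a1*, against 3.65% of protein-coding records and 3.31% of those of at least 10 FPKM.

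Between SHR and Dahl R all 9 genes were lower in SHR, where 55.5% of protein-coding records were higher in SHR. The log2 ratios ran from -0.98 for *Slc13a3*, -0.76 for *Cubn* and -0.71 for *Lrp2* to -0.13 for *Aqp1* and -0.07 for *Slc5a2*. Their median was -0.49, beside 0.04 over all protein-coding records. The 2-fold rule called 0 of 9, against 2.78% of protein-coding records and 1.69% of those of at least 10 FPKM. Limits were apart for 1 of 9, *Slc13a3*, against 3.7% and 3%. Any pair of these comparisons shares a library, so the 3 counts are not independent of each other. The number of members above 0 was 3, 7 and 0 of 9 under each of the 9 alternative settings tried. Only the 3 scalings and the summing of records of 1 locus could have changed these numbers. The other settings cannot turn the sign of a member's ratio. In whole-kidney RNA, fewer cells of a type and less RNA per cell cannot be told apart.

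**Figure D3:**
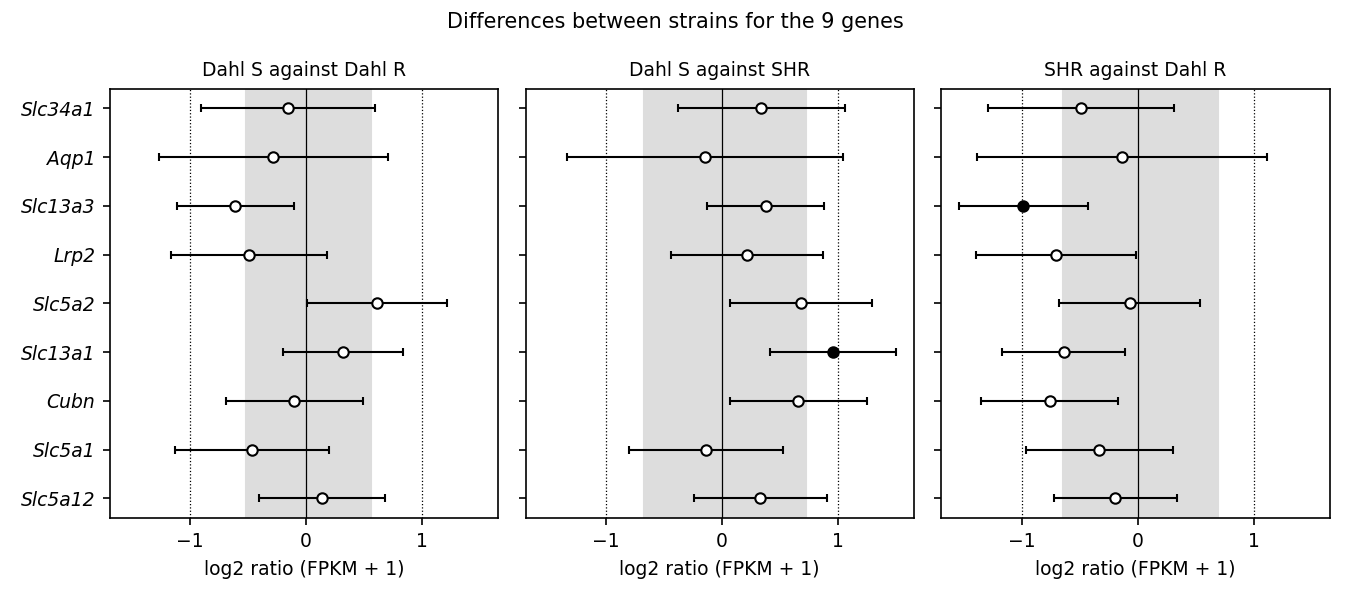
Log2 ratio of FPKM plus 1 for each gene in the 3 pairs of strains, with genes in order of mean level. Bars combine the relative limits of both libraries as a root sum of squares, filled points mark limits that do not overlap, grey bands hold the middle 95% of protein-coding records of at least 10 FPKM, and dotted lines mark the 2-fold rule. All 9 points lie left of 0 for SHR against Dahl R, and 1 filled point appears in each of the 2 panels with SHR.

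**Figure D4:**
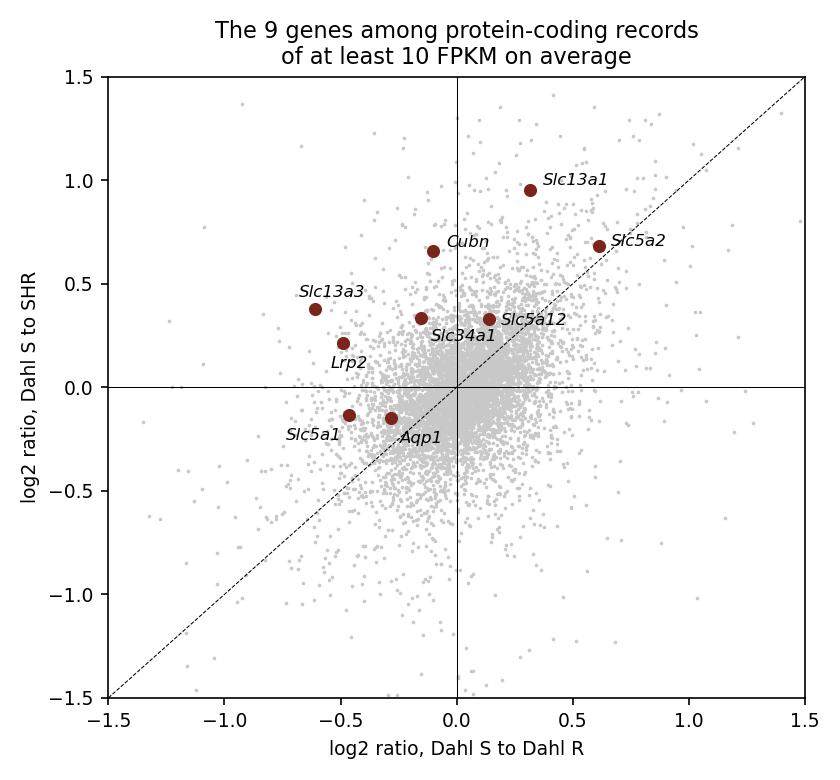
Log2 ratio of Dahl S to Dahl R (horizontal) and to SHR (vertical) for the 9 genes (large points) and for protein-coding records of at least 10 FPKM (grey); records beyond the drawn axes are not shown. The axes share the Dahl S library, so grey points stretch along the diagonal; the 9 genes all lie above it, where Dahl R exceeds SHR.

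The median pair of log2 ratios of the 9, -0.15 to Dahl R and 0.34 to SHR, is that of *Slc34a1*. Among 3475 records that have a symbol and average at least 20 FPKM, 35 (1.01%) had a pair within a distance of 0.1 of it. The nearest 5 over the 3 libraries were *Cdr2* at a distance of 0.012, *Sod1* at 0.014, *Slc16a12* at 0.016, *Pyroxd2* at 0.024 and *Gcsh* at 0.031. *Slc16a12*, which encodes a creatine transporter, stood at 58.7, 66.1 and 46.7 FPKM in Dahl S, Dahl R and SHR. *Sod1*, the cytosolic superoxide dismutase, stood at 996, 1103 and 795 FPKM. The members themselves were spread around this pair, by 0.29 for *Slc5a12* up to 0.84 for *Slc5a2*.

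The other genes of the pathway were taken from 5 lists of 72 genes, of which 66 were measured. Together 25 of the 66 were above 0 for Dahl S to Dahl R, 36 for Dahl S to SHR and 21 for SHR to Dahl R. The 2-fold rule called 1 higher and 0 lower, 3 higher and 0 lower, and 0 higher and 1 lower in these pairs. Of all protein-coding records 1.97%, 2.97% and 2.78% were called, and the counts among the 66 were near these shares.

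Other sodium-coupled carriers of phosphate, sugars, amino acids and vitamins were mostly lower in Dahl S. Of 16 measured, 4 were above 0 for Dahl S to Dahl R, with a median of -0.30, 5 for Dahl S to SHR, with a median of -0.22, and 5 for SHR to Dahl R, with a median of -0.11. The 2-fold rule called 0 in each pair. *Slc6a19*, the brush border carrier of neutral amino acids, stood at 36.1 FPKM in Dahl S (28.8 to 43.4), 28.1 in Dahl R (22.8 to 33.3) and 22.1 in SHR (17.8 to 26.4), and its limits in Dahl S and SHR were apart. Of 3 further carriers named after their values were seen, *Slc6a18*, a glycine carrier and the most abundant of the list, stood at 331, 408 and 395 FPKM. *Slc34a3*, the NaPi-IIc phosphate carrier, stood at 59.7, 42.3 and 36.9 FPKM and *Slc5a10*, a carrier of mannose and fructose, at 69.7, 92.1 and 124 FPKM. *Slc34a3* had the strain order of *Slc5a2*, and *Slc5a10* had the reverse order, highest in SHR. The limits of *Slc34a3* and of *Slc5a10* overlapped between strains, and the locus of *Slc5a10* is shared with 1 other record.

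Genes for sodium entry and exit, buffering and apical scaffolds had medians near 0. Of 11 measured, 0 were called in any pair, and the medians were -0.05, 0.07 and -0.09 for Dahl S to Dahl R, Dahl S to SHR and SHR to Dahl R. *Fxyd2*, the regulatory subunit of the sodium pump, had 2636, 2748 and 2880 FPKM in Dahl S, Dahl R and SHR. *Atp1b1*, the beta subunit of the pump, had 1154, 1340 and 1182 FPKM at a locus shared with 1 other record. *Slc9a3r1*, the NHERF1 scaffold that holds NaPi-IIa at the membrane, had 254, 262 and 210.3 FPKM. Single genes of the list differed more, and 2 were named after their values were seen. *Slc9a3*, the NHE3 exchanger that brings in most proximal sodium, had 36.8, 46.9 and 63.2 FPKM, highest in SHR, where 7 of the 9 members were lowest. *Slc4a4*, the NBCe1 carrier by which sodium and bicarbonate leave the cell, had 23.5, 25.6 and 15.8 FPKM, lowest in SHR, with log2 ratios of 0.55 for Dahl S to SHR and -0.67 for SHR to Dahl R. The limits of *Slc9a3* and of *Slc4a4* overlapped between strains.

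Of 9 measured carriers that work beside the members, at the other membrane or for related solutes, 6 were above 0 for Dahl S to Dahl R, 6 for Dahl S to SHR and 3 for SHR to Dahl R, with medians of 0.13, 0.43 and -0.34. With the records of 1 locus summed, the last 2 medians were 0.17 and -0.23. The 2-fold rule called 1. *Slc16a1*, the MCT1 monocarboxylate carrier, had 16.5 FPKM in Dahl S (11.6 to 21.5), 6.30 in Dahl R (4.23 to 8.36) and 7.05 in SHR (4.85 to 9.24). Dahl S was higher than both, by log2 ratios of 1.26 and 1.12 with limits apart. *Slc2a2*, the GLUT2 carrier by which glucose leaves the cell, had 11.4 FPKM in Dahl S (8.66 to 14.1), 9.77 in Dahl R (7.47 to 12.1) and 6.66 in SHR (5.09 to 8.24). *Slc7a9*, a cystine carrier subunit, had 64.3 FPKM in Dahl S (45.7 to 82.8), 47.2 in Dahl R (33.6 to 60.8) and 34.4 in SHR (24.4 to 44.3). For these 2 genes the limits of Dahl S and SHR were apart. *Slc26a1*, the basolateral exit for sulfate and named after its values were seen, had 47.4, 45.9 and 26.0 FPKM, lowest in SHR like *Slc13a1*, with limits that overlapped, and its locus is shared with 1 other record.

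Of 20 partners in endocytosis, 12 were above 0 for Dahl S to Dahl R with a median of 0.06, 15 were above 0 for Dahl S to SHR with a median of 0.16, and 7 for SHR to Dahl R with a median of -0.12. *Ctsl1*, the lysosomal protease cathepsin L, was called higher in Dahl S than SHR, at 1227, 679 and 574 FPKM in Dahl S, Dahl R and SHR, although its limits in Dahl S (672 to 1783) and SHR (344 to 805) overlapped. *Dab2*, the adaptor that links megalin to the coat of the pit, had 103 FPKM in Dahl S (87.8 to 119), 85.7 in Dahl R (72.9 to 98.4) and 63.7 in SHR (54.2 to 73.2). It was lowest in SHR, and its limits there were apart from those in Dahl S. *Amn*, which encodes the amnionless partner of cubilin and was named after its values were seen, had 123, 119 and 150.4 FPKM, highest in SHR where *Cubn* was lowest, with limits that overlapped.

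Of 10 regulators of phosphate and vitamin D handling and of tubule identity, all were below 0 for Dahl S to Dahl R, with a median of -0.17, 6 for Dahl S to SHR, with a median of -0.03 that turned sign under upper-quartile scaling, and 9 for SHR to Dahl R, with a median of -0.22. *Cyp24a1*, the enzyme that degrades active vitamin D, was the 1 called. It had 2.08 FPKM in Dahl S (1.18 to 2.98), 2.56 in Dahl R (1.56 to 3.55) and 0.379 in SHR (0.151 to 0.608), and SHR lay below both with limits apart. *Hnf4a*, a transcription factor of proximal tubule cells named after its values were seen, had 119, 173 and 132 FPKM in Dahl S, Dahl R and SHR. It was highest in Dahl R, with limits that overlapped.

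Markers of the nephron segments and of other kidney cells were set beside these values. The 7 brush border markers that are not members, among them the peptidases *Anpep*, *Mme* and *Enpep*, had medians of 0.04, -0.18 and -0.19 for Dahl S to Dahl R, Dahl S to SHR and SHR to Dahl R. The second median had the opposite sign to the members' 0.34, but the 7 markers were split in that pair. There 3 were above 0 and 4 below, with 0 called and 0 with limits apart. *Anpep* was called higher in Dahl S than Dahl R, at 499.5, 242 and 470.3 FPKM in Dahl S, Dahl R and SHR, with overlapping limits. The 7 straight tubule markers, of which *Slc5a1* is 1, had medians of -0.28, -0.00 and -0.27. Markers of later segments were mostly higher in SHR than Dahl R: 5 of 5 for the thick ascending limb (median 0.37), 3 of 4 for the distal convoluted tubule (0.14), 7 of 7 for principal cells (0.56) and 6 of 6 for intercalated cells (0.67). The exception was *Slc12a3* of the distal convoluted tubule at -0.18. *Slc4a1*, counted for intercalated cells, is on the red cell list too. *Avpr2*, counted for principal cells, had lower limits of 0 in each library, at a locus of 10 records. Endothelial markers were higher in SHR for 6 of 6 (0.34) and podocyte markers for 5 of 6 (0.18). Summed levels in Dahl S, Dahl R and SHR were 4664, 5166 and 6668 FPKM for the thick ascending limb, 339, 376 and 454 FPKM for the distal convoluted tubule, 918, 843 and 1226 FPKM for principal cells and 314, 260.4 and 446 FPKM for intercalated cells. Most of the thick ascending limb sums was *Umod*, at 4028, 4475 and 5783 FPKM. Its limits were 0 to 9561 in Dahl S and 0 to 17164 in Dahl R, so these sums are loosely set. *Aqp4* and *Slc26a4* were called higher in SHR than Dahl R. For Dahl S to SHR the medians were -0.41 for the thick ascending limb, -0.36 for the distal convoluted tubule, -0.49 for principal cells, -0.41 for intercalated cells and -0.30 for endothelium. No matched marker of any of these lists was listed at 0 in any library. The medians of the later-segment lists thus lay opposite to the members' median in both pairs with SHR, and their part in the members' differences was not tested. For Dahl S to Dahl R the medians were 0.00 for the thick ascending limb, -0.10 for the distal convoluted tubule, 0.04 for principal cells, 0.33 for intercalated cells and 0.04 for endothelium, and those at or near 0 turned sign under other scalings.

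**Figure D5:**
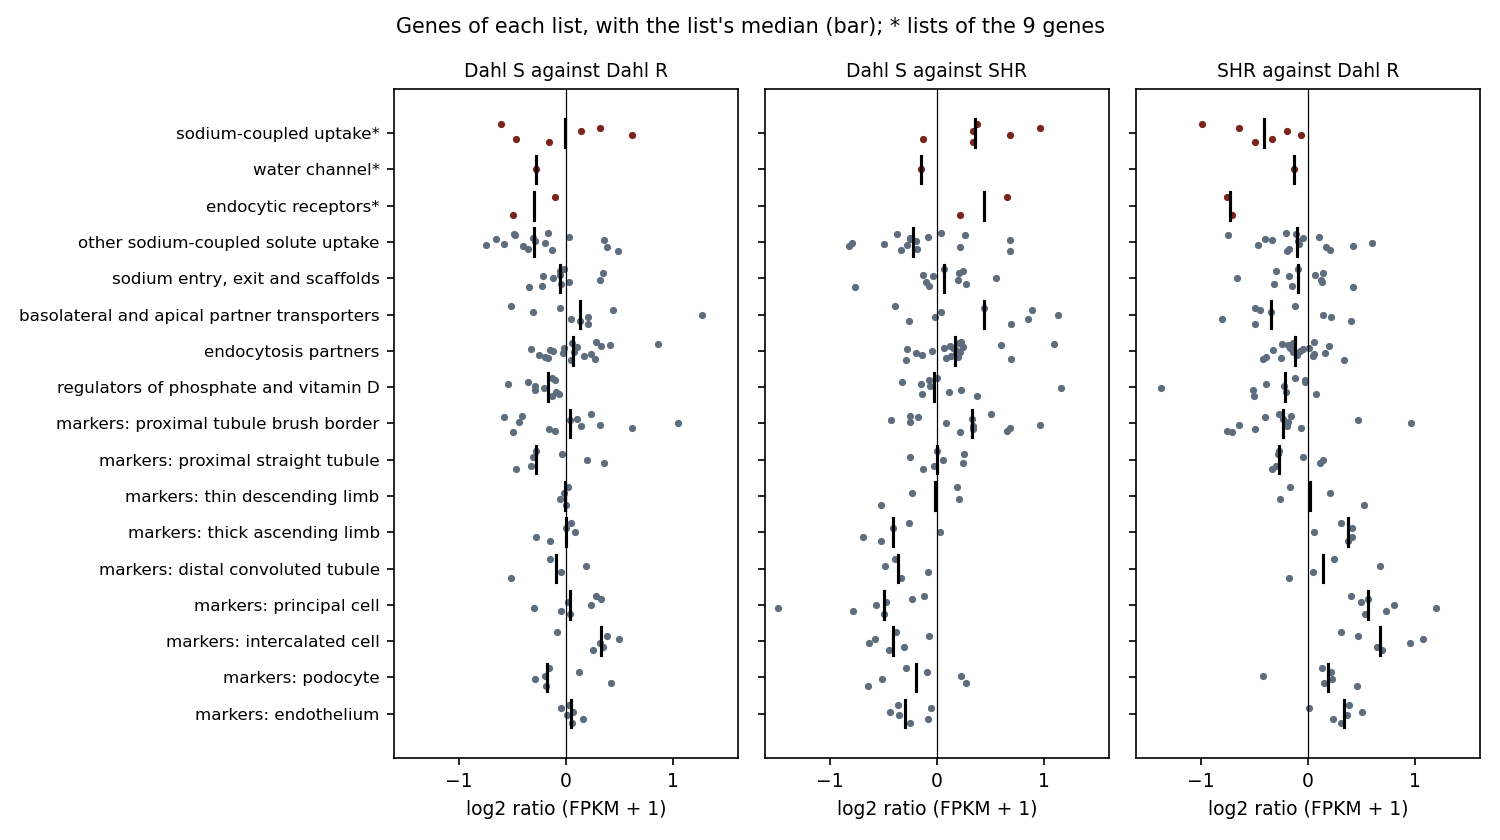
Log2 ratio of FPKM plus 1 of every measured gene of each list in the 3 pairs of strains, with the median of the list as a bar; the red lists hold the 9 genes. For SHR against Dahl R the medians of the members' lists lie left of 0 and those of the thick ascending limb, principal cell, intercalated cell and endothelium lists lie right of it. The red blood cell and injury lists are not drawn.

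Genes known to go up in injured tubules were mostly higher in Dahl S, 7 of 9 measured against Dahl R and 7 of 9 against SHR. *Havcr1* and *Spp1* were called higher than in Dahl R, and these with *Lcn2* and *Clu* higher than in SHR. *Havcr1*, the gene of the injury marker KIM-1 on proximal tubule cells, had 7.64 FPKM in Dahl S (4.998 to 10.3), 0.653 in Dahl R (0.276 to 1.03) and 0.340 in SHR (0.116 to 0.564), with the limits of Dahl S apart from both. *Spp1*, osteopontin, had 929, 352 and 370.4 FPKM. *Lcn2*, a secreted iron-trap protein, had 21.2, 10.8 and 9.95 FPKM, and *Clu*, clusterin, had 173, 106 and 75.1 FPKM. Dahl S was the strain with the highest *Slc5a2*, *Slc5a12* and *Slc13a1* and the lowest *Slc5a1* and *Aqp1*, and the part of injury in these levels was not tested.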

How the data were processed

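RNA sequencing of rRNA-depleted total RNA from rat kidney gave 3 libraries, 1 per strain. The authors deposited FPKM values with lower and upper limits, and the submitters' processing notes name TopHat 1.3.1 and Cufflinks 1.0.3. Genome build, annotation, read totals, confidence level and strandedness: not given in the sources used here. With no count tables used here, intervals other than the deposited limits were not computed, and the limits are read as deposited.

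All records were compared in 3 pairs of strains with a pseudocount of 1 FPKM, a minimum mean of 1 FPKM and a threshold of 1 on the log2 ratio, without rescaling. Relative depth was read from limits of scarce records that fitted whole fragment numbers within 0.01, which held for 534 records in Dahl R and 448 in SHR. Of 151 genes in 19 lists, 131 were matched by name, 6 by description, 3 by UniProt entry name and 11 not at all. The rule for named genes takes all 9 members, from each pathway or injury list up to 4 genes called, those with limits apart or the 2 to 3 most abundant where none was, and the 5 nearest in pattern. Genes said to be named after their values were seen, and marker genes, fall outside it. Members and lists were chosen with earlier results of these data known. Promoters (GRCr8) came from RefSeq and matched all 9 genes by symbol. Protein sequences were not used here, and 1 listed gene and 1 motif are not reported here. Alternatives tried were pseudocounts of 0.1 and 5, a minimum of 5 FPKM or none, 3 scalings between libraries, a requirement of limits apart and summing the records of 1 locus. The calculation was tested on simulated data with planted changes larger than the 2-fold rule, which does not cover changes near that rule. Python 3.11.15 with numpy 2.4.6, pandas 2.3.3 and matplotlib 3.10.9 was used.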

Additional observations from a re-analysis of the deposited data

How the results depend on the processing

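The number of the 9 genes called was 0 in each pair, except that *Slc13a3* was called lower in SHR than Dahl R (1 of 9) under median-of-ratios scaling, upper-quartile scaling and scaling to equal totals without mitochondrial and haemoglobin records. Genes with limits apart in that pair numbered 2, *Slc13a3* and *Cubn*, under upper-quartile scaling in place of 1. All 243 ratios of single members under the 9 alternatives kept their sign and stayed within the width given by the deposited limits. Much of this was fixed in advance. A changed minimum and the requirement of limits apart leave a member's ratio as it was, and a pseudocount cannot turn its sign. Only the scalings, and the locus sums for members that share a locus, could have turned a sign. The members' median ranged from -0.20 to -0.12 for Dahl S to Dahl R, from 0.32 to 0.38 for Dahl S to SHR and from -0.55 to -0.41 for SHR to Dahl R. Of 513 list medians 25 changed sign, each of a list and pair whose reported median lay between -0.03 and 0.04. Of the 513, 9 moved by more than 0.1, 2 of which are among the 25. The median of the partner transporters for Dahl S to SHR ranged from 0.17 to 0.56, lowest with the records of 1 locus summed, and that of the brush border markers was as low as 0.20.

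Counts of calls over all records depended on the minimum, the pseudocount and the calling rule, as given here in the order Dahl S to Dahl R, Dahl S to SHR and SHR to Dahl R. The counts of 723, 905 and 787 became 230, 361 and 320 with a minimum mean of 5 FPKM and 1264, 1440 and 1231 with no minimum. They became 1196, 1432 and 1270 with a pseudocount of 0.1, and 178, 270 and 214 with a pseudocount of 5. They became 382, 516 and 455 with the records of 1 locus summed, and 302, 465 and 464 when limits also had to be apart. A higher minimum, a larger pseudocount and the limits rule give fewer calls by construction. With the locus sums each locus was counted once, and what else changed that count was not tested. No paired analysis was possible because each strain has 1 library. Without replicates, differences between animals of a strain cannot be separated from differences between strains, and age differed between the libraries by up to 2 days.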
